A study of Mus musculus with 7 samples.

Results

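The subunits of RNA polymerase III were followed in luminal prostate cells of wild-type mice and of mice that carry an ETV1 allele. Polr3gl was compared with its paralog Polr3g and with Polr3a, Polr3b, Polr3c, Polr3d, Polr3e, Polr3f and Polr3k. These 9 genes were measured by 25 of the 34945 probe sets with 1 gene symbol, and all 9 were among the 18193 genes tested. Polr3gl was chosen by its measured difference between the genotypes in these same arrays, where it had the smallest unadjusted p of all genes. Its difference is therefore given as a description, with no test. The other 8 were taken by annotation as subunits of the same enzyme, and intervals are given for them.

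Luminal cells line the prostate ducts and secrete. They were sorted as CD49f positive and Sca1 negative cells that lacked CD31, CD45 and Ter119, and T-ETV1 cells were in addition GFP positive. There were 3 WT arrays (A to C) and 4 T-ETV1 arrays (A to D), although the series text speaks of 3 biological replicates. T-ETV1 mice hold a human cDNA of ETV1, an ETS transcription factor, driven by the mouse's own Tmprss2 promoter, and no value here measures that cDNA. Genotype and the GFP gate cannot be told apart, and the age of the mice is not given in the sources used here. The labels do not tie arrays to animals, so p-values measure the spread between these samples, which may be technical.

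RNA polymerase III makes transfer RNAs, 5S ribosomal RNA and other short non-coding RNAs. Its subunit RPC7 is encoded by either of a pair of paralogous genes, Polr3g and Polr3gl, and each enzyme holds the product of only one of them. Polr3g is known for its high level in undifferentiated and many tumour cells, while Polr3gl is found widely in differentiated tissue. RPC7 sits with the products of Polr3c and Polr3f in a small subcomplex that takes part in initiation.

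The stretches before the starts of Polr3gl and Polr3g are shown because the paralogs differed in these arrays and because the allele carries an ETS factor. They are the 250 bases before the annotated start, read on the gene's strand, from RefSeq's promoters of GRCm38.p6. Polr3gl lies at chr3:96594182-96594431 and Polr3g at chr13:81711014-81711263, both on the minus strand. Capitals mark matches on either strand to GGAA, the core of ETS sites, to the longer ETS form CCGGAA, which contains that core, and to the E-box CACGTG.
Polr3gl: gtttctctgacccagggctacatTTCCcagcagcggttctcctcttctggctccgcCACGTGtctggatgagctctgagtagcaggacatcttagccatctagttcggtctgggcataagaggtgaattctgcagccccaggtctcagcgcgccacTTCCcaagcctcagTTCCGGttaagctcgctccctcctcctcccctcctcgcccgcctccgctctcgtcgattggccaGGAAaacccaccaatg
Polr3g: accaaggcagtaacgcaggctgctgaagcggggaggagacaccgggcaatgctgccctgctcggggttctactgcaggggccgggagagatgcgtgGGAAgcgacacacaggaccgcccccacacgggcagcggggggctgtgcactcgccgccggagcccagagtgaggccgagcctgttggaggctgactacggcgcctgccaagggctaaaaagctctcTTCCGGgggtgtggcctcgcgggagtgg
The Polr3gl stretch had 4 matches to GGAA, and 1 of them, at 80 to 77 bases before the start, belonged to the single match to CCGGAA. It also had 1 E-box, at 194 to 189 bases before the start. The Polr3g stretch had 2 matches to GGAA, of which the one beginning 28 bases before the start belonged to its single match to CCGGAA, and it had no E-box. Both paralogs thus held the longer ETS form. Of the 32851 promoters in the table, 93.4% held GGAA, 12.0% CCGGAA and 6.02% CACGTG within the same length. Promoters of 7 of the 9 members were in the table. Polr3b and Polr3c also held 1 match to CCGGAA each, while Polr3e, Polr3f and Polr3k held none, and Polr3c held 1 E-box. Such a match is a description of the letters and no evidence that a factor binds.

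Polr3gl was lower in every T-ETV1 array than in every WT array. Its intensity was 843 (A), 752 (B) and 792 (C) in WT arrays. For T-ETV1, Polr3gl was at 172 (A), 108 (B), 219 (C) and 176 (D). The groups lay far apart, with B the lowest and C the highest of the T-ETV1 arrays. The WT mean of 796 ± 45.6 (SD, n = 3) compared with 169 ± 45.5 (SD, n = 4) for T-ETV1, a ratio of WT over T-ETV1 of 4.71. On the scale of log2(intensity + 16), used for all differences below, the T-ETV1 minus WT difference was -2.17 ± 0.22 (SE). The log2 values spread more in T-ETV1 (SD 0.38) than in WT (SD 0.08). Within the replicate letters the log2 difference was -2.19 for A, -2.63 for B and -1.78 for C. A single probe set measures Polr3gl on this array, so no other probe set could be set beside it. In a bulk sample, fewer cells of a type and less RNA per cell cannot be told apart. Most markers of other cells, given with the luminal markers, were also lower on average in T-ETV1.

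Differences of this size were not particular to Polr3gl among all genes. In 176 of the 18193 genes the log2 difference was at least as large in either direction, and in 55 of these the groups did not overlap. Groups that do not overlap, with T-ETV1 lower, were found in 3.90% of all genes (710) and, in either direction, in 6.32%. That split turned with scaling, from 440 genes higher and 710 lower to 689 and 491 after quantile normalization and 910 and 319 after median centring. By limma with Benjamini-Hochberg adjustment no gene passed an adjusted p of 0.05 (0% of those tested), and 1113 genes had an unadjusted p under 0.05. Without T-ETV1 C, 27 genes passed, and 26 of them (0.143% of those tested) were lower in T-ETV1.

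Polr3g, the paralog, showed no such separation. Its intensity was 623 (A), 448 (B) and 521 (C) in WT arrays. For T-ETV1, Polr3g was at 459 (A), 534 (B), 584 (C) and 610 (D). The arrays of the groups were interleaved, with WT A the highest and WT B the lowest of all. The WT mean of 530 ± 87.9 (SD, n = 3) compared with 547 ± 66.7 (SD, n = 4) for T-ETV1. The log2 difference was 0.05 ± 0.16 (SE), with a 95% interval from -0.33 to 0.42, and did not pass (limma adjusted p = 0.985). The sign of this small difference was not stable, since it was -0.01 without T-ETV1 D and -0.07 without WT B. The array letter was also entered in the model as a replicate block. T-ETV1 D has no WT array of its letter and was left out there, so the block gave the same -0.01.

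The relation between the paralogs therefore shifted in each T-ETV1 array. Taken within an array as the log2 value of Polr3g minus that of Polr3gl, and set relative to the WT mean, the WT arrays lay at 0.15, -0.15 and -0.01. T-ETV1 A, B, C and D lay at 1.92, 2.73, 1.94 and 2.29. The mean shift was 2.22, with SDs of 0.15 in WT and 0.38 in T-ETV1. Nearly all of it came from Polr3gl. Since different probe sets bind their targets unequally, the shift shows unequal change and says nothing of which paralog was more abundant.

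**Figure D1:**
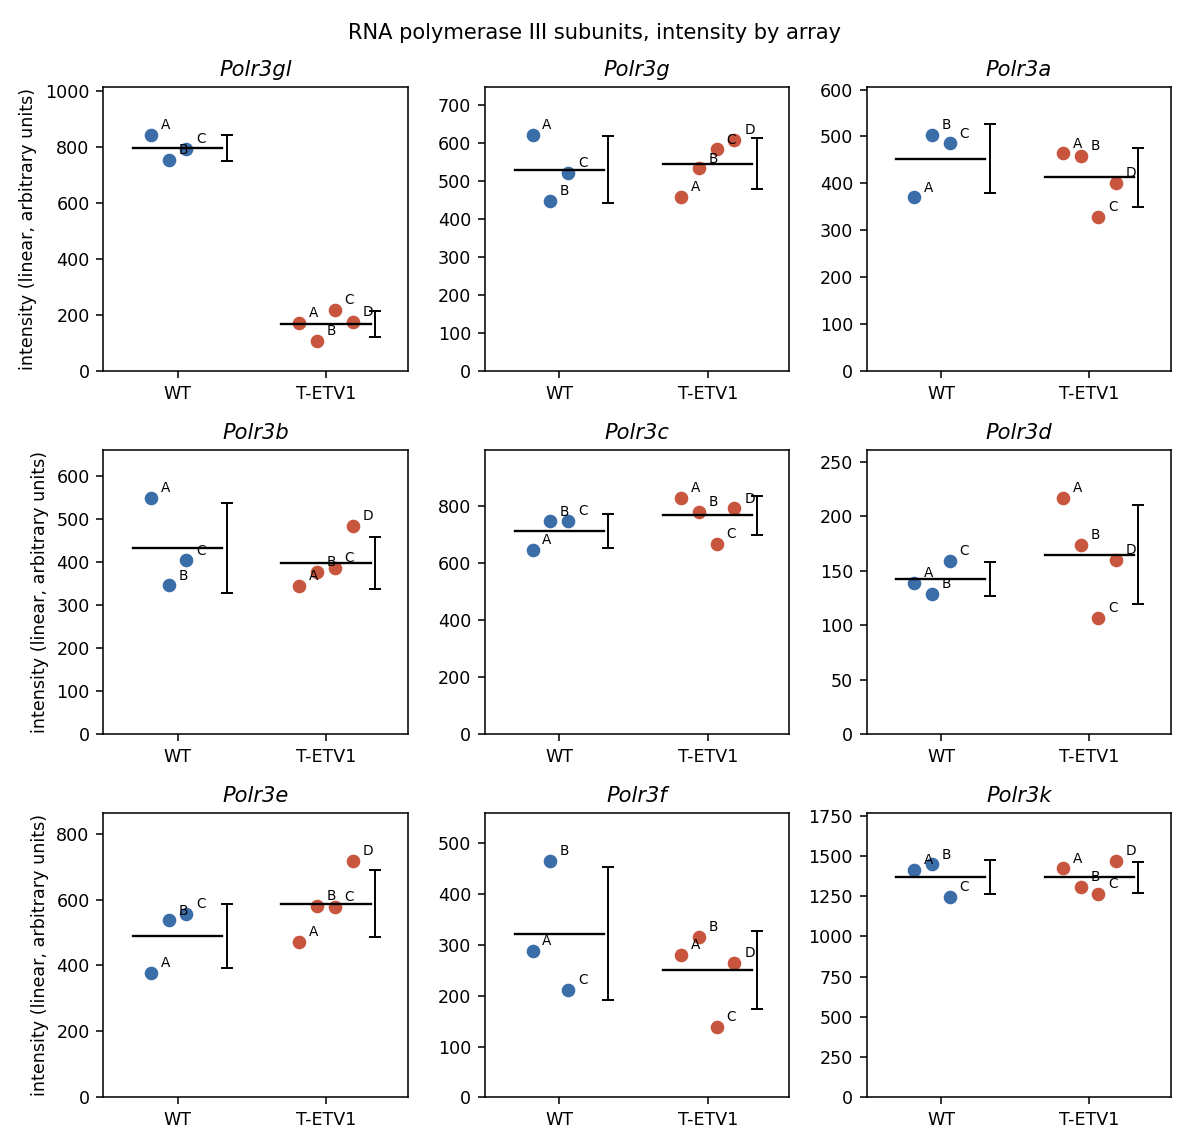
Intensity (linear, arbitrary units, each panel with its own axis from 0) of the 9 subunits in the 3 WT and 4 T-ETV1 arrays. Points are arrays with their letters, lines are group means and bars are 1 SD. Polr3gl lies between 752 and 843 in WT and between 108 and 219 in T-ETV1, while the groups overlap in the other 8 panels.

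The partners of RPC7 in its subcomplex overlapped between the groups. Polr3c had intensities of 645 (A), 746 (B) and 748 (C) in WT arrays. For T-ETV1, Polr3c was at 829 (A), 778 (B), 668 (C) and 791 (D). Of the T-ETV1 arrays, C alone lay below WT B and C. The log2 difference of Polr3c was 0.10 ± 0.12 (SE; 95% interval -0.18 to 0.38; limma adjusted p = 0.936). Polr3f varied most within the groups, at 289 (A), 466 (B) and 211 (C) in WT arrays. For T-ETV1, Polr3f was at 281 (A), 316 (B), 139 (C) and 265 (D). Both arrays of letter C were the lowest of their group. Its log2 difference was -0.33 ± 0.35 (SE; 95% interval -1.16 to 0.51; limma adjusted p = 0.928). In the gene table Polr3c lies on chromosome 3, as Polr3gl does, with 8 protein-coding genes between them.

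The catalytic core also overlapped. Polr3a, the largest subunit, had intensities of 370 (A), 504 (B) and 485 (C) in WT arrays. For T-ETV1, Polr3a was at 464 (A), 459 (B), 329 (C) and 401 (D). The lowest array of each group, WT A and T-ETV1 C, stood below the rest of its group. The log2 difference was -0.13 ± 0.17 (SE; 95% interval -0.54 to 0.28; limma adjusted p = 0.945), and 0.01 after median centring. Polr3b, the second largest subunit, had 550 (A), 346 (B) and 404 (C) in WT arrays. For T-ETV1, Polr3b was at 344 (A), 377 (B), 387 (C) and 485 (D). Here WT A was the highest of all arrays. Its log2 difference was -0.10 ± 0.19 (SE; 95% interval -0.56 to 0.35; limma adjusted p = 0.965), and 0.03 after median centring.

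Polr3d and Polr3e encode a pair of subunits that bind each other and take part in initiation and termination. Polr3d had intensities of 139 (A), 129 (B) and 159 (C) in WT arrays. For T-ETV1, Polr3d was at 217 (A), 174 (B), 107 (C) and 160 (D). T-ETV1 A and C were the highest and the lowest of all arrays. The log2 difference was 0.16 ± 0.22 (SE; 95% interval -0.37 to 0.69; limma adjusted p = 0.948), and its other probe set had the opposite sign, at -0.31 ± 0.16 (SE). Polr3e had 378 (A), 537 (B) and 556 (C) in WT arrays. For T-ETV1, Polr3e was at 472 (A), 582 (B), 578 (C) and 718 (D). Of the T-ETV1 arrays, A lay inside the WT range and the other arrays above it. The log2 difference was 0.26 ± 0.19 (SE; 95% interval -0.20 to 0.72; limma adjusted p = 0.882), and its other probe set was again of opposite sign, at -0.19 ± 0.19 (SE).

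Polr3k, a small subunit for RNA cleavage and termination, had nearly equal means in both groups. Its intensity was 1414 (A), 1448 (B) and 1248 (C) in WT arrays. For T-ETV1, Polr3k was at 1423 (A), 1306 (B), 1267 (C) and 1471 (D). In both groups C was the lowest array. The log2 difference was -0.00 ± 0.11 (SE; 95% interval -0.26 to 0.26; limma adjusted p = 0.999), and 0.04 after quantile normalization or 0.13 after median centring.

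Among the 9 members the groups did not overlap in 1, Polr3gl, the gene that was selected on this very difference, against 6.32% of all genes. Of the other 8, 4 were higher and 4 lower in T-ETV1, with log2 differences from -0.33 to 0.26 and a median of 0.02, against -0.03 over all genes. After median centring 7 of these 8 were higher and 1 lower, and the median over all genes was then 0.11. None of the 8 had an unadjusted p under 0.05, against 1113 of all 18193 genes.

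Probe sets of the same subunit often differed in sign. Of the 24 probe sets of the other 8 members, 10 were higher and 14 lower in T-ETV1. Over all 25 probe sets the groups did not overlap in 3, each lower in T-ETV1, against 3.87% of all probe sets with 1 gene symbol. Polr3gl was among them by its selection on this difference, so it is not to be weighed against that share. Among the other 24 probe sets there were only a dim probe set of Polr3f and a dim probe set of Polr3a. That of Polr3f had intensities of 25.1 (A), 19.6 (B) and 26.0 (C) in WT arrays. For T-ETV1, that probe set of Polr3f was at 12.8 (A), 13.6 (B), 9.29 (C) and 11.2 (D). The log2 difference was -0.51 ± 0.12 (SE) and did not pass (limma adjusted p = 0.663 over all probe sets). That of Polr3a had a WT mean of 16.6 ± 2.00 (SD, n = 3) compared with 8.66 ± 3.78 (SD, n = 4) for T-ETV1. The other probe sets of both genes overlapped between the groups, and for Polr3f their log2 differences ran from -0.33 to 0.43. In 4 of the 25 probe sets both group means were under 50.

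**Figure D2:**
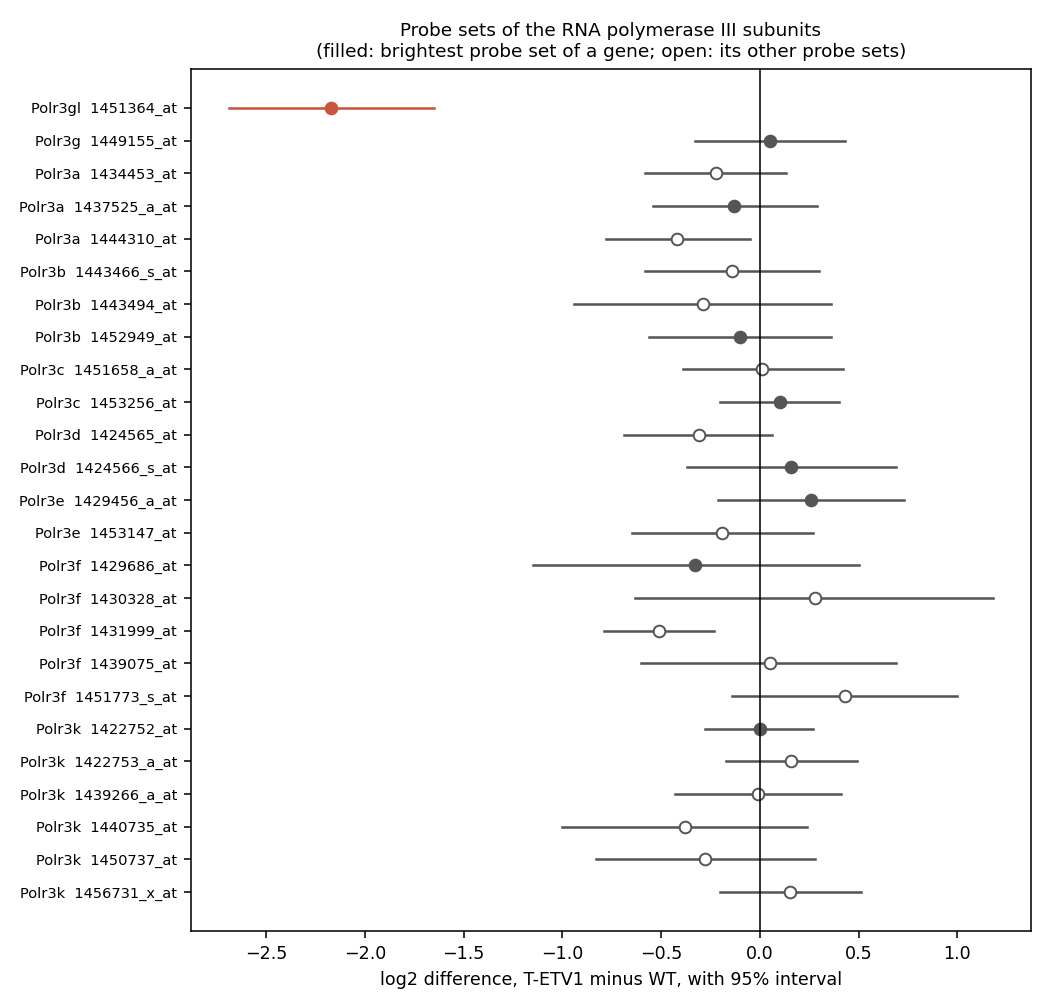
Log2 difference, T-ETV1 minus WT, of the 25 probe sets of the 9 subunits, with 95% intervals from limma. The interval drawn for Polr3gl is a description of spread and no test, since the gene was selected on this difference. Filled points are the brightest probe set of a gene and open points its other probe sets. Polr3gl lies at -2.17, and the other 24 lie between -0.51 and 0.43.

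The other measured subunits of the enzyme were close to 0. Crcp encodes a subunit of the stalk and had a log2 difference of 0.16 ± 0.11 (SE). Polr1c and Polr1d, shared with RNA polymerase I, had -0.26 ± 0.17 and 0.01 ± 0.09 (SE). Polr2e, Polr2f and Polr2h, shared by all the nuclear RNA polymerases, had -0.01 ± 0.09, -0.02 ± 0.14 and -0.20 ± 0.15 (SE). None passed, and the smallest limma adjusted p was 0.879.

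Initiation at RNA polymerase III promoters needs TFIIIB and, depending on the gene, factors among TFIIIC, TFIIIA and the SNAPc complex. Of 16 measured initiation factors 7 were higher and 9 lower, 0 passed (smallest limma adjusted p = 0.834) and the median log2 difference was -0.20. This median was -0.15 after quantile normalization and -0.07 after median centring. The members with the smallest unadjusted p were the TFIIIC subunits Gtf3c4 (-0.24 ± 0.11, SE) and Gtf3c1 (0.19 ± 0.12), the TATA-binding protein Tbp (-0.30 ± 0.16) and Gtf3c5 (-0.29 ± 0.18). The TFIIIB subunits Brf1 and Bdp1 had 0.07 ± 0.15 and -0.24 ± 0.25.

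Maf1, the repressor that holds RNA polymerase III back when nutrients or growth signals are low, had a log2 difference of -0.01 ± 0.13 (SE). Of 8 measured genes in the list of this repressor and upstream regulators 2 were higher and 6 lower, and none passed (smallest limma adjusted p = 0.822). Rb1, the retinoblastoma protein, which can bind and repress TFIIIB, had groups that did not overlap, at -0.30 ± 0.14 (SE). Myc, an activator of RNA polymerase III, had -0.11 ± 0.45. The kinase gene Csnk2a1 had -0.17 ± 0.11 and Mtor had 0.15 ± 0.23. These signs depended on scaling, since 6 of the 8 were higher after median centring.

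Transcripts of RNA polymerase III are bound at their ends and trimmed. Of 23 measured genes of this kind 8 were higher and 15 lower, with a median log2 difference of -0.10, and none passed (smallest limma adjusted p = 0.772). After median centring 14 were higher and 9 lower. Rpp30, a protein of RNase P that cuts transfer RNA precursors, had the largest difference, at -0.53 ± 0.19 (SE), and its groups did not overlap. Lsm3, part of the ring that binds the end of U6 RNA, had -0.41 ± 0.20. Trnt1, which adds the CCA end of transfer RNAs, had 0.19 ± 0.11, and Lsm2, of the same ring as Lsm3, had -0.28 ± 0.18. Ssb, the La protein that first binds the new transcripts, had -0.10 ± 0.09.

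Over these 4 lists 53 genes were measured, with log2 differences between -0.53 and 0.35. Of them 19 were higher and 34 lower, which became 31 higher and 22 lower after median centring, and 26 and 27 after quantile normalization. The groups did not overlap in 2 of the 53 (3.77%), Rb1 and Rpp30, against 6.32% of all genes. Subunits found only in RNA polymerase I (6 genes, median 0.02) or only in RNA polymerase II (8 genes, median -0.06) did not pass either. In the latter list Polr2a, the largest subunit, had groups that did not overlap, at 0.35 ± 0.17 (SE; limma adjusted p = 0.835).

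**Figure D3:**
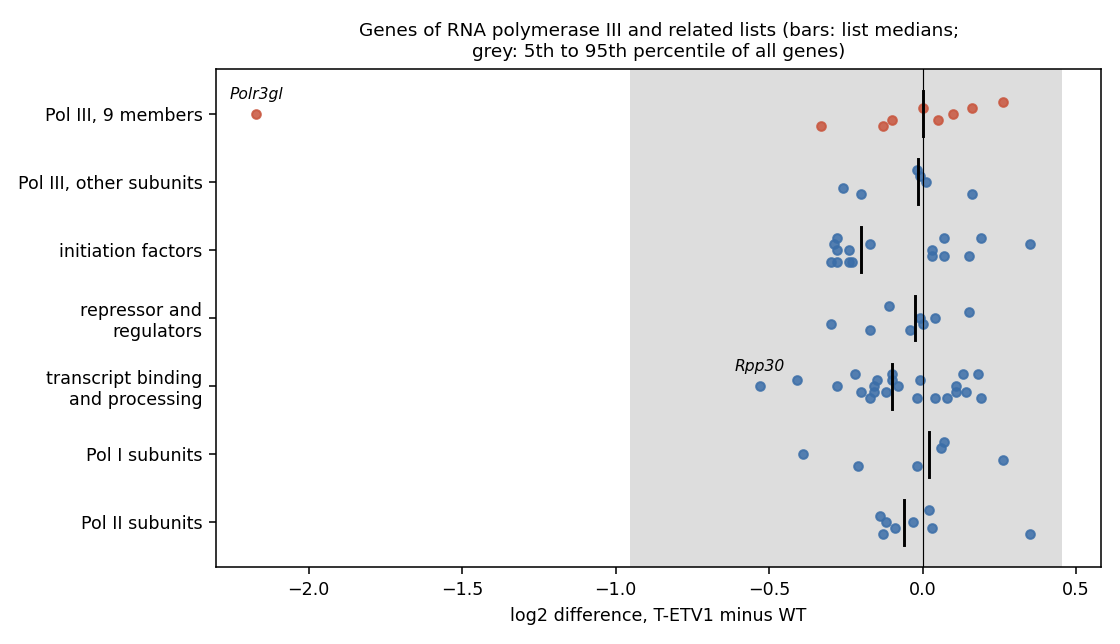
Log2 difference, T-ETV1 minus WT, of each measured gene in 7 lists, on a linear axis. Bars are list medians, and the grey band runs from the 5th to the 95th percentile of all 18193 genes, -0.95 to 0.45. Polr3gl, at -2.17, is the only gene of these lists outside the band.

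The neighbours of Polr3gl on chromosome 3 did not share its difference. Txnip, an inhibitor of thioredoxin and of glucose uptake, is the nearest measured gene on its left in the gene table. Its intensity was 4179 (A), 5354 (B) and 6840 (C) in WT arrays. For T-ETV1, Txnip was at 4200 (A), 5630 (B), 5928 (C) and 3960 (D). The arrays were interleaved, and the log2 difference was -0.14 ± 0.23 (SE). Lix1l, on the right, had 0.25 ± 0.43. The nearer right neighbour Ankrd34a (0.02 ± 0.21) and the further left one, Hjv (-0.00 ± 0.18), had intensities under 18 in every array. Around Polr3g on chromosome 13, Lysmd3, Adgrv1, Mblac2 and Cetn3 had log2 differences of -0.04 ± 0.13, -0.10 ± 0.63, -0.23 ± 0.24 and 0.02 ± 0.11 (SE).

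Some genes followed Polr3gl from array to array. Among the brighter 50% of genes, Pearson's r with Polr3gl over the 7 arrays was highest for Trap1 (0.982), Sem1 (0.962), Smn1 (0.961), Ostf1 (0.960) and Tgds (0.958). Their own log2 differences ran from -0.53 (Ostf1) to -0.18 (Sem1), far smaller than that of Polr3gl. With the group means taken out, r was highest for Alg10b, Kantr and Mpdz (0.990 each), Pgpep1 (0.985) and Mest (0.980). All these genes were picked for the highest r, so that they exceed the subunits was set in advance. Over the 7 arrays r with Polr3gl ran from -0.509 (Polr3c) to 0.271 (Polr3b) among the other members, and was -0.064 for Polr3g. With the group means taken out it ran from -0.663 (Polr3a) to 0.295 (Polr3g). All 7 arrays share their scaling, the first set of r holds the genotype difference itself, and both are given as a description.

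The luminal identity of the sorted cells was checked with markers. Of 8 luminal genes 6 were measured, the keratins Krt8 and Krt18, the secretory gene Pbsn, Hoxb13, Cd24a and Tmprss2. Each had an intensity of at least 2908 in every array, and their log2 differences lay between -0.15 and 0.05. Their summed intensity ran from 48491 to 50250 in WT and from 48012 to 52819 in T-ETV1.

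Most markers of other cells had a lower mean log2 value in T-ETV1, though no marker passed. All 8 basal genes were lower, with sums of 8607 to 24199 in WT and 3400 to 20052 in T-ETV1. All 10 endothelial genes were lower, with sums of 1869 to 5789 in WT and 619 to 2736 in T-ETV1. All 8 fibroblast genes were lower, with sums of 3828 to 23286 in WT and 1885 to 8665 in T-ETV1. All 8 smooth muscle genes were lower (2465 to 8011 in WT, 2068 to 2712 in T-ETV1), and 7 of 9 leukocyte genes were (7230 to 27836 and 6585 to 16221). In each of these 5 lists array C had the highest sum of its group, in WT and in T-ETV1. Leukocyte sums were 7478 and 7230 in WT A and B, and 27836 in WT C alone. Most of the sum in WT A and B was Cd52, at 7259 and 6831, which had 5751 to 9153 in T-ETV1 arrays. In the smooth muscle list, Mylk had 1913 of the sum of 2465 in WT A. The basal sum of T-ETV1 C, 20052, lay above those of WT A (8607) and WT B (15818). After median centring 1 basal, 2 smooth muscle and 3 leukocyte genes were higher. No marker was at 0, and Cdh5 and Cnn1 had an intensity of 1 or under in some array. The sums overlapped between the groups in each of these 5 lists. In the basal, endothelial and fibroblast lists this overlap came from T-ETV1 C alone. T-ETV1 A, B and D lay below every WT array in these, with sums of at most 4555, 999 and 2957. The lowest WT sums were 8607, 1869 and 3828. The sums of the 5 lists also hold bright genes with small differences, such as Dst (-0.05), Mylk (-0.10) and Cd52 (0.03). In some single markers the groups did not overlap, with T-ETV1 lower, as in 3.90% of all genes. These were 2 of 10 endothelial genes, Plvap (-2.60 ± 0.51, SE) and Cldn5 (-2.56 ± 0.76). Of 8 fibroblast genes they were the 2 collagens Col1a2 (-2.36 ± 0.81) and Col3a1 (-2.91 ± 0.84). Of 8 smooth muscle genes it was 1, Myl9 (-3.60 ± 0.87), and no basal or leukocyte marker was among them. The gap was narrow in Cldn5 (222 in T-ETV1 C, 266 in WT A) and wider in Plvap (10.8 in T-ETV1 B, 49.2 in WT A). The WT log2 SD of these markers ran from 0.12 (Cldn5) to 1.67 (Col1a2), against 0.08 for Polr3gl. Their log2 differences were as large as that of Polr3gl, and the genes were named after their values were seen. The part of other cells in the difference of Polr3gl was not tested.

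**Figure D4:**
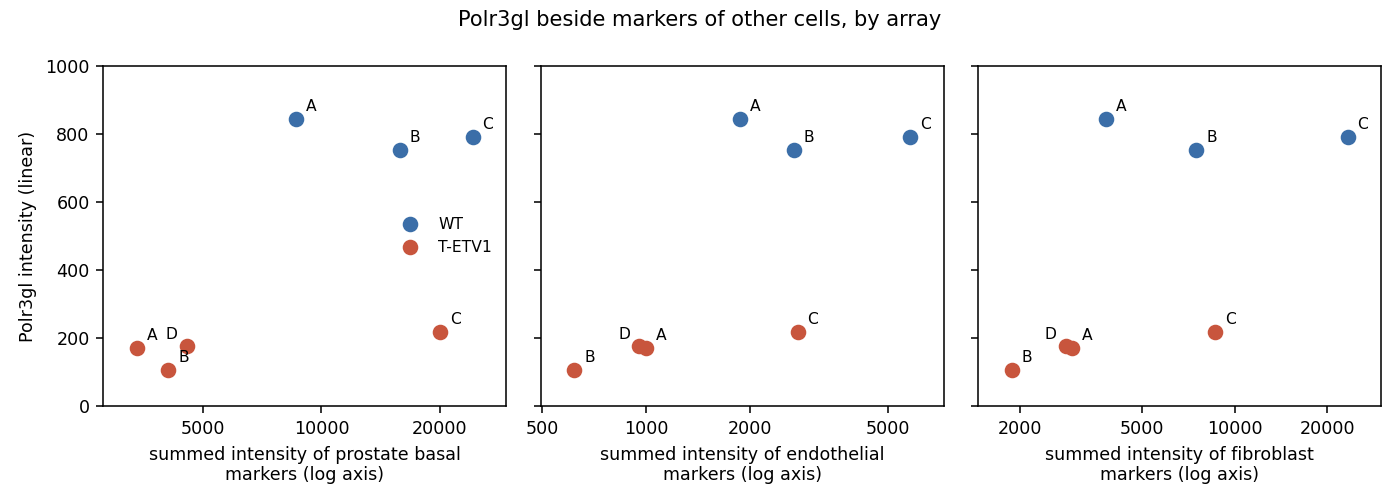
Polr3gl intensity (linear axis from 0) against the summed intensity of basal, endothelial and fibroblast markers (log axes) in the 7 arrays, marked by letter. Basal sums run from 8607 to 24199 in WT and from 3400 to 20052 in T-ETV1, and Polr3gl from 752 to 843 and from 108 to 219.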

How the data were processed

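Luminal cells of 3 WT and 4 T-ETV1 samples were measured on Affymetrix Mouse Genome arrays, with RNA amplified by a NuGEN kit, per the labels' protocols. The deposited values are linear intensities of 45037 probe sets in each array. How the authors summarised probes and scaled the arrays is not given in the sources used here. The array medians lay between 48.5 and 73.6, and 0.605% of values were at or under 1. The number of arrays limits the precision.

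Probe sets were named by the platform annotation, and 34741 symbols were updated by Entrez ID with a GRCm38.p6 gene table. Probe sets with several genes (932) or none listed (9160) were left out. The brightest probe set stood for a gene. Log2(intensity + 16) was tested across all 18193 genes with limma 3.58.1 in R 4.3.3 (T-ETV1 minus WT, two-sided, 6.67 degrees of freedom, Benjamini-Hochberg adjustment). The pipeline was checked on simulated data. Intervals are limma's at 95%. An exact permutation of 3 against 4 arrays cannot go below p = 0.0571 and was not used. Members and lists were chosen with earlier results of these data known. Named genes are the members, the other subunits, up to 4 genes per further list with the smallest p, 2 neighbours per side and the 5 most alike; other list genes were named for their role or their groups, after their values were seen. Polr1f, Polr1g and Polr1h were matched by older symbols.

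Deviations from the group means correlated at 0.281, 0.217 and 0.356 for the letters A, B and C. WT A and T-ETV1 D also correlated, at 0.187. Such deviations sum to 0 within each group, so these values do not by themselves show that the letters pair the arrays. Letters entered as pairs only in the replicate block. The main fit, with its intervals and adjusted p, did not use them. Alternatives were quantile normalization, median centring, pseudocounts of 1 and 64, the mean of probe sets, every probe set alone and the brighter 50% of genes. Further ones were eBayes with a trend, array weights, the replicate block (without T-ETV1 D) and leaving out arrays.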

Additional observations from a re-analysis of the deposited data

Results flagged for a closer look

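In the group of 4 T-ETV1 arrays, 3 of 100 probe sets examined had an array far from the others, by Dixon's test of the gap over the range. Chance alone gives such a gap in about 1 in 20 groups. A dim probe set of Polr3k had a log2 value of 5.26 in T-ETV1 C, an intensity of 22.3, against 4.75 to 4.82 in the other arrays. Snapc1, a subunit of the SNAPc initiation complex, had a log2 value of 8.30 in T-ETV1 A against 9.53 to 9.61 in the others. Xpot, the exporter of transfer RNAs, had 10.54 in T-ETV1 D against 10.70 to 10.73.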

How the results depend on the processing

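The log2 difference of Polr3gl kept its direction in all 18 alternatives, from -2.30 to -1.91, the latter with a pseudocount of 64. Leaving out each array in turn gave -2.30 (without T-ETV1 C) to -1.99 (without T-ETV1 B), given as a description since the gene was selected on this difference. The shift between the paralogs ran from 1.95 to 2.32 over its 14 alternatives. With the replicate block, run without T-ETV1 D, it was 2.19, Polr3gl was at -2.20 and the block changed no call. Leaving out T-ETV1 D without the block gave the same 2 values. Leaving out both arrays C was chosen after seeing the data. Small differences of the other members turned sign. Polr3g was at -0.01 without T-ETV1 D, with or without the block, and leaving out each array gave -0.07 (without WT B) to 0.17. Polr3a was at 0.01 after median centring and 0.03 without both arrays C. Polr3b was at 0.03 after median centring, 0.08 with array weights and, leaving out each array, at -0.25 to 0.08. Polr3d was at -0.08 with the mean of its probe sets. Polr3k was at 0.04 after quantile normalization and 0.13 after median centring, and at -0.07 to 0.04 leaving out each array. No gene passed over all arrays; leaving out each array gave 0 to 27 genes past the threshold (7 without WT C, 27 without T-ETV1 C), and 68 passed without both arrays C. Genes with groups that do not overlap numbered 1649 to 2908 when an array was left out and 4732 without both arrays C, since fewer arrays separate more easily. Signal near background limits the dim probe sets, whose differences are understated by the pseudocount. The causes of the other changes were not tested.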
